A study of Mus musculus with 14 samples.

Results

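The genes described here are those whose products handle peroxides, superoxide, quinones, electrophiles and metal ions in mouse thymus: glutathione transferases, glutathione peroxidases, peroxiredoxins, thioredoxins, glutaredoxins, superoxide dismutases, catalase, the glutathione-synthesising and glutathione-reducing enzymes, 2 carbonyl and quinone reductases, and the metallothioneins Mt1 and Mt2. Members were chosen by symbol, as every probe set assigned to a single gene whose symbol belongs to these families. Cat, Gclc, Gclm, Gsr, Nqo1, Cbr2, Mt1 and Mt2 were named singly. The choice was made with earlier results of these data known. Counts of members beside shares of all probe sets are thus not blind to the values. The rule took 69 probe sets of 44 genes out of 22690 probe sets, of which those with a single symbol named 12393 genes. A filter on low signal, applied without regard to group, left 49 member probe sets of 32 genes among 13575 probe sets of 8214 genes. The other 20 member probe sets had mean signals of 1.99 to 44.3 and were not tested, and 12 member genes had no tested probe set. Prdx1, the family member that is usually abundant, is not among them, because its probe sets carried a second symbol.

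The study compared 17β-estradiol, the main ovarian estrogen, with genistein, an isoflavone of soy known as a ligand of estrogen receptors, by their effects on RNA levels in whole thymus. All animals were female C57BL/6 mice, given as 21 days old, whose ovaries were removed on day 26 and who received the phytoestrogen-free AIN-93G diet from 2 days later. Treatment began on day 30. The control group was untreated and taken at day 0. The estradiol groups received 125 ng of 17β-estradiol in 0.02 ml of corn oil under the skin each day, and the genistein groups ate a diet with 1500 ppm genistein, and both were taken at days 2, 3 and 6. Each of the 7 groups had 6 animals, and RNA of 3 animals was pooled for each array, so that every group was 2 independent pools on 2 Affymetrix arrays. A control group given oil alone, or taken at a later day, was not analysed here, so the change with treatment and the change with age, injection or time after surgery cannot be told apart in the comparisons with control. The estradiol and genistein groups share these controls and differ in route and dose.

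Glutathione, a small thiol peptide, is made by glutamate-cysteine ligase and glutathione synthetase, spent by glutathione peroxidases on peroxides and by glutathione transferases on electrophiles, and returned to its reduced form by glutathione reductase. Thioredoxins pass electrons to peroxiredoxins, which remove hydrogen peroxide in parallel, and superoxide dismutases and catalase handle superoxide and peroxide without a thiol donor. Metallothioneins are small cysteine-rich proteins that bind zinc and copper, and their genes are known to respond to metals through the factor MTF1 and to glucocorticoids. The thymus is made up mostly of developing T cells, and involutes under sex steroids and glucocorticoids.

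RefSeq promoter sequences of assembly GRCm38.p6, running from 250 bases before a transcription start to 50 bases after it, were at hand for 39 of the 44 member genes, with 53 promoters in all. They are shown for the 2 metallothioneins, whose promoters are the textbook case of metal response elements, and for Cbr2, the member with the clearest change. Each is written 5′ to 3′ on the strand of the gene, and capitals mark matches to the core of the metal response element, TGCNCNC, on either strand.
Mt1 (chr8:94178839-94179138, plus strand): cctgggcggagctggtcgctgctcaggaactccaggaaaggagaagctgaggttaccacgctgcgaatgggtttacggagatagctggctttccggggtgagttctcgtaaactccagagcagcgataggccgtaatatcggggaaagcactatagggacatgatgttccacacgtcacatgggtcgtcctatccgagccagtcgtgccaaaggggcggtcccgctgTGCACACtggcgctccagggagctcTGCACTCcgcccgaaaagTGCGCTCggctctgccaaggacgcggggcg
Mt2 (chr8:94172368-94172667, plus strand): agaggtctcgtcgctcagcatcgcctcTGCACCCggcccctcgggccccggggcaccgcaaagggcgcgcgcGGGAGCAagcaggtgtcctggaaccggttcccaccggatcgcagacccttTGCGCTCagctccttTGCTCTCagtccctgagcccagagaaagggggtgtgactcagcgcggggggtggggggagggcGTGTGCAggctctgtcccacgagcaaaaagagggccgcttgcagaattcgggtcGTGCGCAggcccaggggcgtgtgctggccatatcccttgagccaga
Cbr2 (chr11:120731972-120732271, minus strand): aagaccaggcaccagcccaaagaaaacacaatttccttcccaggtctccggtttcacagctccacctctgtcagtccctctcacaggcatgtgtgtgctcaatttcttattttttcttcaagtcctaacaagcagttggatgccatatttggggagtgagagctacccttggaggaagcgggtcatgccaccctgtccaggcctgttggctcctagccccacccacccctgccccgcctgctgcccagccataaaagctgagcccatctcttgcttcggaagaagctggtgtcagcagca

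The core matched 3 times in the Mt1 promoter and 6 times in that of Mt2, and it had 0 matches in those of Cbr2 and Gpx3 and 2 in that of Nqo1. Only the 300 bases around the listed start were searched, so elements outside them were not counted. A single match is common: 51.0% of 32851 promoters of the same length held at least 1, against 54.7% (29 of 53) of the member promoters, and 7.1% of all promoters held 3 or more. The core of the antioxidant response element, TGACNNNGC, was found in 6 member promoters (11.3%), among them those of Mt2 and Gclm, against 12.4% of all. The palindromic estrogen response element was found in 0 member promoters and in 0.07% of all promoters. The palindromic glucocorticoid response element was found in 0 member promoters and 0.00913% of all, and its looser core ACANNNTGT in 3 member promoters (5.66%), that of Mt1 included, against 6.85%. Matches overlapping between motifs were each counted, and a match describes letters, not a bound site. In the gene table Mt1 and Mt2 are neighbours with 0 genes between them.

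Values are MAS5 signals, an array brightness on a linear scale. The trimmed mean of the signals, taken without the lowest and highest 2% of probe sets, was 150.04 on 11 arrays, but 1.49 times that on the second estradiol array of day 2 and 2.00 and 2.23 times that on the 2 estradiol arrays of day 3. All arrays were therefore brought to 1 trimmed mean before any comparison. The second control array stood apart from the others, with a mean correlation of 0.942 with the remaining arrays. The Gapdh 3′ signal divided by its 5′ signal, a measure of RNA integrity, was 1.27 on the first estradiol array of day 2 and 1.50 on the first genistein array of day 6, and 0.867 to 1.10 on the rest. Changes below are differences of mean log2(signal + 16), which understate the change of dim probe sets, given ± the standard error of the limma fit over all 14 arrays. A probe set is called where limma's p-value, adjusted by the Benjamini-Hochberg method over all 13575 probe sets, is under 0.05, and a gene is represented by its brightest probe set unless another is named.

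With estradiol, 3 members were higher than in control when the 3 days were averaged: Cbr2, a mitochondrial carbonyl reductase, the secreted glutathione peroxidase Gpx3, and Mt2. These were 3 of the 49 tested probe sets, beside 0.604% of all probe sets called in either direction and 0.53% called higher. By the same test 0 members fell, beside 0.0737% of all, with 1 below control at an unadjusted p under 0.05 in limma, the second probe set of Gpx4. At single days, Cbr2 rose with estradiol at day 2 (1 member called, beside 0.0884% of all in either direction and 0.0737% higher), at day 3 (1 member, beside 0.0663% and 0.0589%) and at day 6, where the quinone reductase Nqo1 rose as well (2 members, beside 0.656% and 0.611%). Genistein changed 0 members by limma at the adjusted threshold, over the mean of the days (0.0368% of all called) and at days 2, 3 and 6 (0.0147%, 0.00737% and 0.00737%). At an unadjusted p under 0.05 in limma, 5 of the 49 member probe sets passed for genistein over the mean of the days, beside 11.1% of all, and 6, 4 and 5 at days 2, 3 and 6, beside 11.8%, 5.73% and 10.4%. The same count for estradiol was 10 over the mean of the days (20.4% of member probe sets, against 14.8% of all), and 8, 6 and 12 at the single days, against 12.3%, 10.2% and 14% of all. Across all 7 groups the limma F test called 1 member, Cbr2, beside 0.368% of all.

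Most members lay close to their control level under both treatments. Over the mean of the days, 23 of the 32 genes were above control with estradiol, with a median change of 0.08 against 0.01 for all 8214 genes, and 51.5% of all genes and 50.9% of all probe sets were above control. With genistein 18 of 32 were above control, with a median of 0.03 against 0.02 for all genes, and 54.7% of all genes and 52.2% of all probe sets were above control. The medians by role with estradiol were 0.85 for the 2 metallothioneins, 0.35 for the 5 genes of glutathione supply and the reductases, 0.27 for the 4 superoxide dismutases and catalase, 0.10 for 11 glutathione transferases, -0.03 for 4 thioredoxins and glutaredoxins, -0.06 for 3 glutathione peroxidases and -0.16 for 3 peroxiredoxins. All 6 estradiol arrays of the 3 days lay above both control arrays in 7 member probe sets, beside 8.04% of all, and below both in 1, beside 6.96%. These 7 belonged to Cbr2, Gpx3, Mt1, Mt2, Gsto1 and Glrx, each by its brightest probe set, and to Txn2 by a dimmer one, and the 1 was Prdx2.

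**Figure D1:**
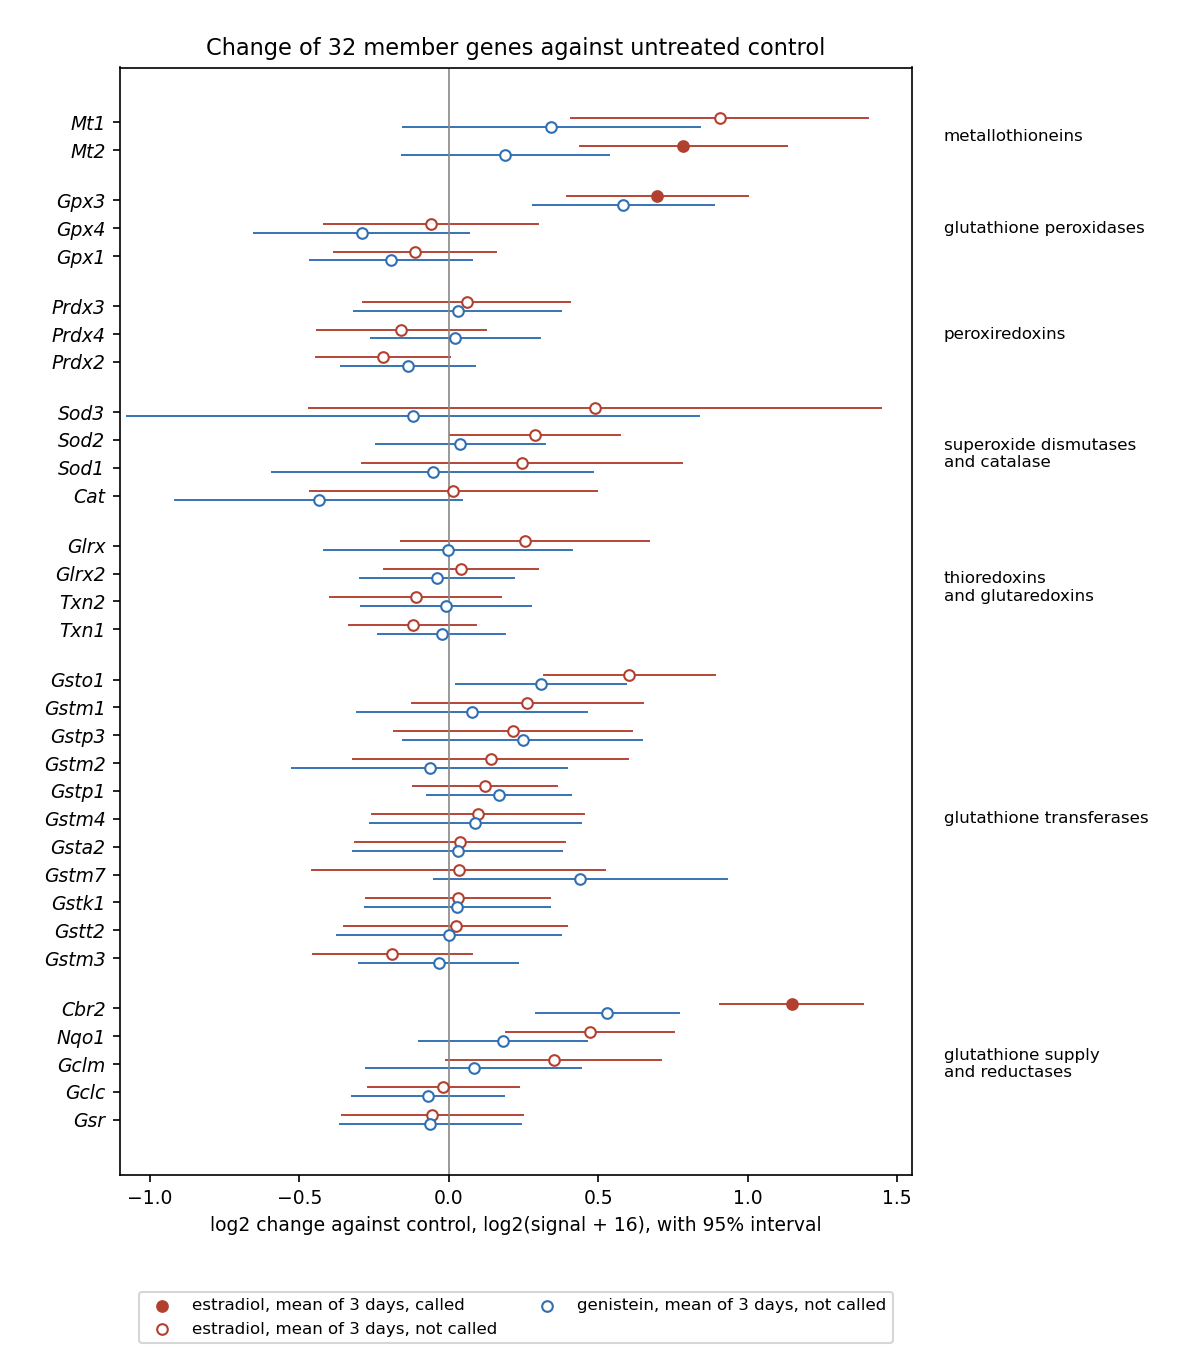
Change of the 32 tested member genes against the untreated control, as the difference of mean log2(signal + 16) (horizontal axis) with its 95% interval from limma, for estradiol (red) and genistein (blue), each averaged over days 2, 3 and 6. Filled points are called and open points are not; Cbr2, Gpx3 and Mt2 are the 3 filled points, with changes of 1.15, 0.70 and 0.78, and most other intervals include 0.

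Cbr2 rose in each comparison of estradiol with control. Its signals were 615 and 553 on the control arrays. With estradiol they were 1302 and 1215 on day 2, 1108 and 1170 on day 3, and 1512 and 1628 on day 6. With genistein they were 688 and 541 on day 2, 928 and 961 on day 3, and 992 and 1133 on day 6. All estradiol arrays were thus above all control arrays, and the genistein arrays overlapped the controls at day 2 and lay above them at days 3 and 6. The change with estradiol was 1.15 ± 0.112 over the mean of the days, 2.21-fold (limma adjusted p = 0.00046), and this p-value ranked 2 among all probe sets. By day it was 1.09 ± 0.138 (adjusted p = 0.008), 0.95 ± 0.138 (adjusted p = 0.0282) and 1.40 ± 0.138 (adjusted p = 0.00118), the last of which was the smallest p-value of all probe sets at day 6. The change with genistein was 0.53 ± 0.112 over the mean of the days (limma adjusted p = 0.236), with 0.06 at day 2, 0.68 at day 3 (adjusted p = 0.412) and 0.85 at day 6 (adjusted p = 0.125), none of which passed the threshold.

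The call on Cbr2 over the mean of the days held in each of 28 alternative settings, with limma adjusted p-values up to 0.0398. The calls at single days rested on fewer arrays. Without the second control array the adjusted p was 0.12 at day 2 and 0.248 at day 3, and without the first estradiol array of day 2 it was 0.0551 at day 2. At day 3 it was 0.218 and 0.393 without either array of that day, and 0.0573 and 0.0571 without either estradiol array of day 6. At day 6 it was 0.0579 without the second estradiol array of that day.

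Nqo1, which reduces quinones and is a standard readout of the antioxidant response, was highest on the estradiol arrays of day 6. Its signals were 94.9 and 91.6 in control, 132 and 138 with estradiol on day 2, 87.2 and 116 on day 3, and 176 and 188 on day 6. With genistein they were 95.3 and 89.8 on day 2, 127 and 113 on day 3, and 107 and 119 on day 6. The estradiol arrays of day 6 were above all others, and those of day 3 overlapped the controls. At day 6 the change was 0.86 ± 0.162, 1.81-fold (limma adjusted p = 0.0302), and over the mean of the days 0.47 ± 0.132 (adjusted p = 0.119). The call at day 6 was lost without the second control array (adjusted p = 0.184) and without either estradiol array of day 6 (0.204 and 0.332).

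**Figure D2:**
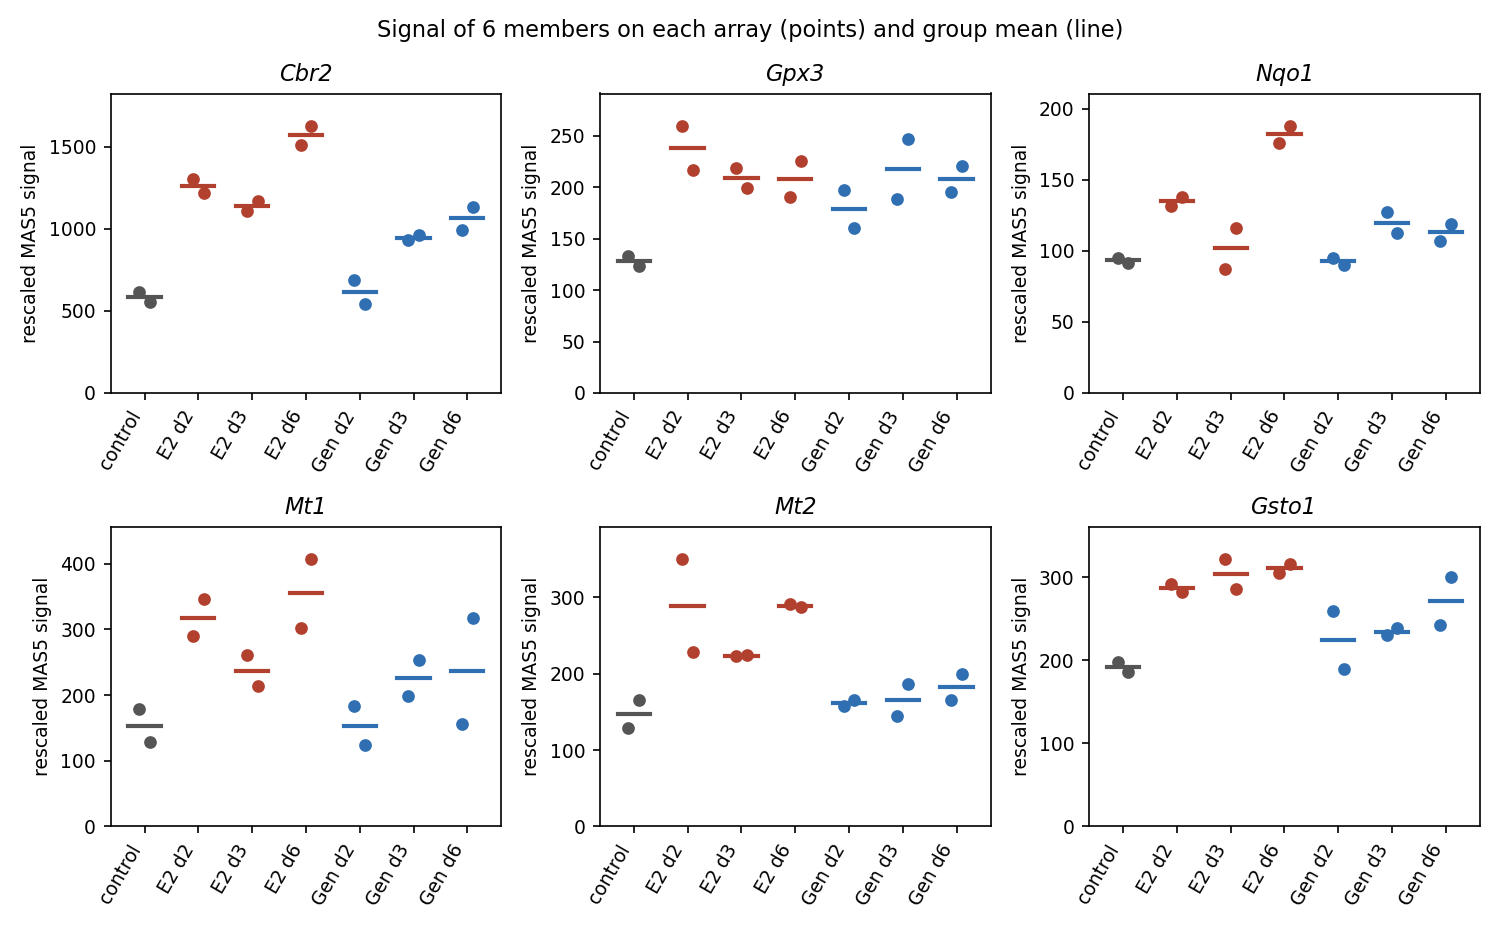
Rescaled MAS5 signal (vertical axes from 0) of Cbr2, Gpx3, Nqo1, Mt1, Mt2 and Gsto1 on each array, for control, estradiol (E2) and genistein (Gen) at days 2, 3 and 6 (d2, d3, d6); each point is 1 array of a pool of 3 animals and each line the mean of the 2 arrays. The Cbr2 estradiol points lie between 1108 and 1628, above the controls at 615 and 553, and the Mt2 estradiol points all lie above the genistein points.

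The enzymes that make and recycle glutathione did not pass the test in any comparison. Gclm, the modifier subunit of glutamate-cysteine ligase, had signals of 78.8 and 56.9 in control, 69.4 to 105 over the 6 estradiol arrays and 58.4 to 95.9 over the 6 genistein arrays. Its groups overlapped, and its estradiol change was 0.35 ± 0.169 (limma adjusted p = 0.355). Gclc, the catalytic subunit, gave -0.02 ± 0.119 with estradiol and -0.07 ± 0.119 with genistein on its brightest probe set, and 0.28 and 0.19 on the other. Gsr, glutathione reductase, gave -0.05 ± 0.143 with estradiol and -0.06 ± 0.143 with genistein, with signals of 255 and 237 in control and 200 to 290 over the 6 estradiol arrays.

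Of the 2 metallothioneins, Mt2 rose with estradiol, and Mt1, with a change of like size, did not pass the test. Mt2 signals were 129 and 166 in control. With estradiol they were 350 and 228 on day 2, 223 and 225 on day 3, and 292 and 287 on day 6. With genistein they were 158 and 166, 144 and 187, and 165 and 200 at the same days. The lowest estradiol array (223) was above the highest genistein array (200) and above both controls, while the genistein and control arrays overlapped. The change of Mt2 over the mean of the days was 0.78 ± 0.163 with estradiol, 1.72-fold (limma adjusted p = 0.0488), and 0.19 ± 0.163 with genistein (adjusted p = 0.691). At day 6 the estradiol change was 0.91 ± 0.199 (adjusted p = 0.0645).

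Mt1 signals were 178 and 128 in control. With estradiol they were 290 and 346 on day 2, 261 and 213 on day 3, and 303 and 407 on day 6. With genistein they were 183 and 124, 198 and 253, and 155 and 318. The estradiol arrays were all above both controls, and the genistein pairs spread widely, most of all at day 6. The change of Mt1 over the mean of the days was 0.91 ± 0.232 with estradiol (limma adjusted p = 0.0956) and 0.34 ± 0.232 with genistein (adjusted p = 0.591), and it was not called. Its size was near that of Mt2, but its standard error was larger. A second Mt1 probe set was dim, at 2.6 to 28.7, and was not tested. The Mt1 probe set counted here carries the suffix that marks probes shared between related transcripts, so part of its signal may come from another metallothionein.

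The call on Mt2 against control stood close to the threshold. It was lost without either control array (limma adjusted p = 0.111 without the first and 0.193 without the second). Leaving out the first estradiol array of day 2, either estradiol array of day 3 or 6, or either genistein array of day 2 or 3, which changes the estimate of the spread, gave adjusted p-values of 0.0533 to 0.122. In all these runs the change stayed between 0.62 and 0.95. It was kept without the second estradiol array of day 2 and without either genistein array of day 6.

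Among the glutathione peroxidases, the secreted Gpx3 rose with estradiol, and the intracellular Gpx1 and Gpx4 did not pass the test. Gpx3 signals were 133 and 123 in control. With estradiol they were 260 and 217 on day 2, 219 and 200 on day 3, and 191 and 226 on day 6. With genistein they were 197 and 161, 189 and 247, and 195 and 221. All 12 treated arrays lay above both controls, and the estradiol and genistein arrays overlapped. The estradiol change was 0.70 ± 0.142 over the mean of the days, 1.62-fold (limma adjusted p = 0.0435), and the genistein change was 0.58 ± 0.142 (adjusted p = 0.257). The 2 treatments differed by 0.11 over the mean of the days, with a 95% interval of -0.10 to 0.33. Gpx3 was the 1 member probe set in which all 6 genistein arrays were above both controls, beside 4.49% of all probe sets, and 0 members lay below, beside 4.19%. The estradiol call was lost without the second control array (adjusted p = 0.428), without the first estradiol array of day 2 (0.0634) and without any of the 4 estradiol arrays of days 3 and 6 (0.0744 to 0.13).

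Gpx1, the abundant cytosolic enzyme, had signals of 730 and 993 in control, 663 to 912 over the estradiol arrays and 618 to 880 over the genistein arrays, with changes of -0.11 ± 0.128 and -0.19 ± 0.128. Gpx4, which reduces lipid peroxides, gave -0.06 ± 0.168 with estradiol on its brightest probe set. Its other probe set gave -0.36 ± 0.145 over the mean of the days and -0.66 ± 0.178 at day 6 (limma adjusted p = 0.115), where its signals of 291 and 273 were the lowest of all arrays. The brightest probe set read 648 and 537 on the same arrays, inside the range of 365 to 704 over all arrays. With genistein over the mean of the days, the brightest Gpx4 probe set gave -0.29 and the other -0.11. At day 2 of genistein Gpx1 read 627 and 618 (change -0.44) and the brightest Gpx4 probe set 365 and 497 (-0.50), below both controls. These 2 and Gpx3, which was higher, had an unadjusted p under 0.05 in limma, beside 11.1% of all genes, and 0 were called. Gpx2, Gpx5, Gpx6, Gpx7 and Gpx8 were too dim to test.

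Of the 3 peroxiredoxins that the rule took, 2 lay below control with estradiol. On the brightest probe set over the mean of the days, 0 passed the test, adjusted or unadjusted. Peroxiredoxins other than Prdx2, Prdx3 and Prdx4 were not among the members and have no values here. Prdx2, a cytosolic enzyme abundant in blood cells, had signals of 1075 and 989 in control and 789 to 939 on the 6 estradiol arrays, all below both controls, and its change was -0.22 ± 0.106 (limma adjusted p = 0.358). With genistein it read 810 to 1052, overlapping the controls, with a change of -0.14 ± 0.106. The mitochondrial Prdx3 gave 0.06 ± 0.163 with estradiol and 0.03 ± 0.163 with genistein. Prdx4, the enzyme of the secretory pathway, had signals of 207 and 236 in control, 215 and 232 at day 2 of estradiol, 245 and 192 at day 3, and 160 and 154 at day 6. The day 6 change was -0.46 ± 0.163 (adjusted p = 0.222). With genistein Prdx4 read 255 and 243, 196 and 181, and 274 and 215, with a change over the mean of the days of 0.02. The pair of estradiol arrays at day 6 was thus lower than all others, but the difference did not pass the threshold.

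The superoxide dismutases and catalase gave small changes that did not pass the test. Sod2, the mitochondrial manganese enzyme, had signals of 382 and 319 in control, 378 to 467 over the estradiol arrays and 309 to 472 over the genistein arrays. Its estradiol change was 0.29 ± 0.133 (limma adjusted p = 0.334), and its second probe set gave 0.02. Sod1, the cytosolic copper and zinc enzyme, varied between arrays of a group, with 1092 and 643 in control and 739 and 1179 with estradiol at day 2, and gave 0.24 ± 0.251. Sod3, the secreted enzyme, gave 0.49 ± 0.447 with estradiol and -0.12 ± 0.447 with genistein. Its genistein pairs of days 3 and 6 read 8.5 and 64.8, and 11.1 and 79.3, so that its error is the largest of the group. Catalase gave 0.01 ± 0.225 with estradiol and -0.43 ± 0.225 with genistein (adjusted p = 0.493). Its control signals were 495 and 438, and with genistein it read 371 and 238 on day 2, 468 and 419 on day 3, and 245 and 362 on day 6. The second Cat probe set gave 0.05 with genistein, a direction the first did not share.

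No thioredoxin or glutaredoxin was called, and the probe sets of the thioredoxins went different ways. Txn1, the cytosolic thioredoxin, had signals of 2184 and 2394 in control and 1964 to 2464 on the 12 treated arrays, with changes of -0.12 ± 0.101 with estradiol and -0.02 ± 0.101 with genistein. Its second probe set gave 0.23 ± 0.226 and 0.47 ± 0.226 in the same order. Txn2, the mitochondrial form, read 246 and 229 in control, 215 and 204 with estradiol on day 2, 198 and 183 on day 3, and 260 and 264 on day 6. Its estradiol arrays were thus below both controls at days 2 and 3 and above them at day 6, with a change over the mean of the days of -0.11 ± 0.135 (limma adjusted p = 0.744). The other tested Txn2 probe sets gave 0.36 ± 0.168 (adjusted p = 0.342) and 0.53 ± 0.218 (adjusted p = 0.278). The first of these read 150 and 141 in control and 165 to 216 on the estradiol arrays, all above both controls. Glrx and Glrx2, the cytosolic and mitochondrial glutaredoxins, gave 0.25 ± 0.195 and 0.04 ± 0.122 with estradiol.

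Of 18 glutathione transferase genes, 11 were bright enough to test and 0 were called by limma in any comparison, with 1 at an unadjusted p under 0.05 for each treatment over the mean of the days. With estradiol 10 of the 11 were above control, from -0.19 to 0.60, and with genistein 9 of 11, from -0.06 to 0.44. Gsto1, an omega-class enzyme with thioltransferase activity, had the largest estradiol change. Its signals were 198 and 186 in control, 292 and 282 with estradiol on day 2, 322 and 286 on day 3, and 306 and 316 on day 6. With genistein they were 260 and 190, 230 and 239, and 243 and 301. Every estradiol array was above both controls, and 1 genistein array lay between them. The estradiol change was 0.60 ± 0.134 (limma adjusted p = 0.0644) and the genistein change 0.31 ± 0.134 (adjusted p = 0.43). Its second probe set gave 0.12 ± 0.168 with estradiol and -0.20 ± 0.168 with genistein. Gstp1, the pi-class enzyme, read 1036 and 983 in control and 997 to 1342 on the treated arrays, with a change of 0.12 ± 0.114 with estradiol.

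**Figure D3:**
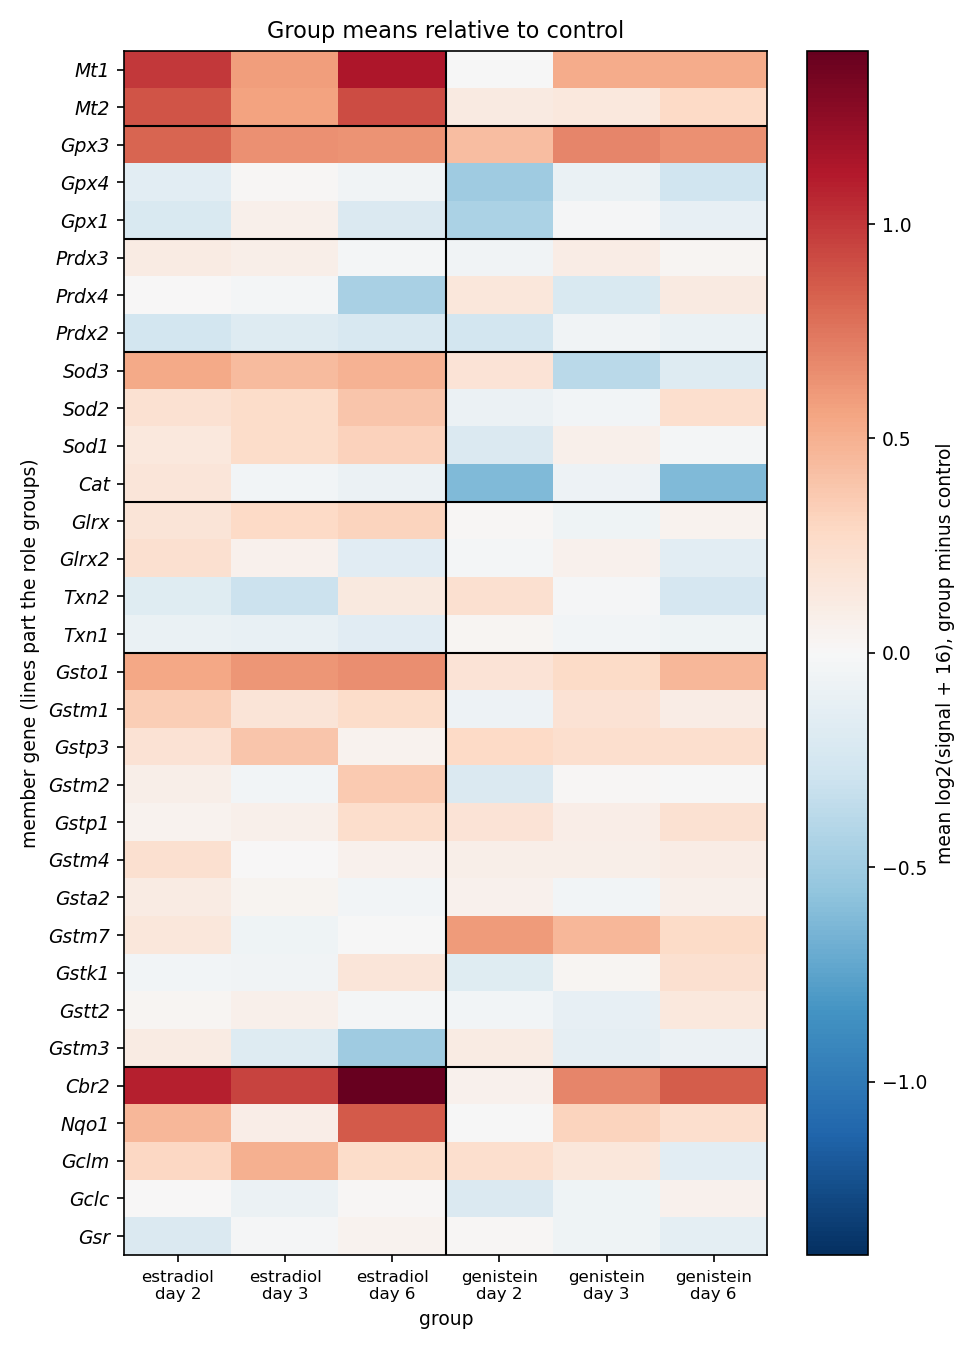
Mean log2(signal + 16) of each treated group minus control (colour, from blue for lower to red for higher) for the brightest probe set of the 32 tested member genes (rows, parted by role) in the 6 treated groups (columns). Cbr2 is the darkest row for estradiol, from 0.95 at day 3 to 1.40 at day 6, and reads 0.06, 0.68 and 0.85 for genistein at days 2, 3 and 6.

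Different probe sets of a gene did not always move together. Of the 14 member genes with more than 1 tested probe set, the estradiol changes had the same sign in 8 and opposite signs in 6, and the genistein changes the same sign in 7 and opposite signs in 7. The median gap between the probe sets of a gene was 0.30 for estradiol and 0.26 for genistein. In the comparison of estradiol with genistein, which does not use the control arrays, 11 of 14 agreed in sign, with a median gap of 0.11. The genes with the widest gaps were picked out after their values were seen. Prdx4 gave -0.16 and 0.72 with estradiol, and the probe set with 0.72 read 78.1 on the first control array and 17.6 on the second. The 3 tested Gstm1 probe sets gave 0.26, 0.32 and 0.95, and the last of these read 70.6 and 8.9 on the control arrays. Without the first control array, that Gstm1 probe set was called in all 8 comparisons with control and that of Prdx4 in 2, with the second control array and its low reading as the sole control. In that run the genistein comparisons called 2 members over the mean of the days and 1, 1 and 2 at days 2, 3 and 6, Cbr2 being 1 of those at day 6. Cbr2, Gpx3, Mt2 and Nqo1 had a single tested probe set each, so their calls have no second probe set to set beside them.

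**Figure D4:**
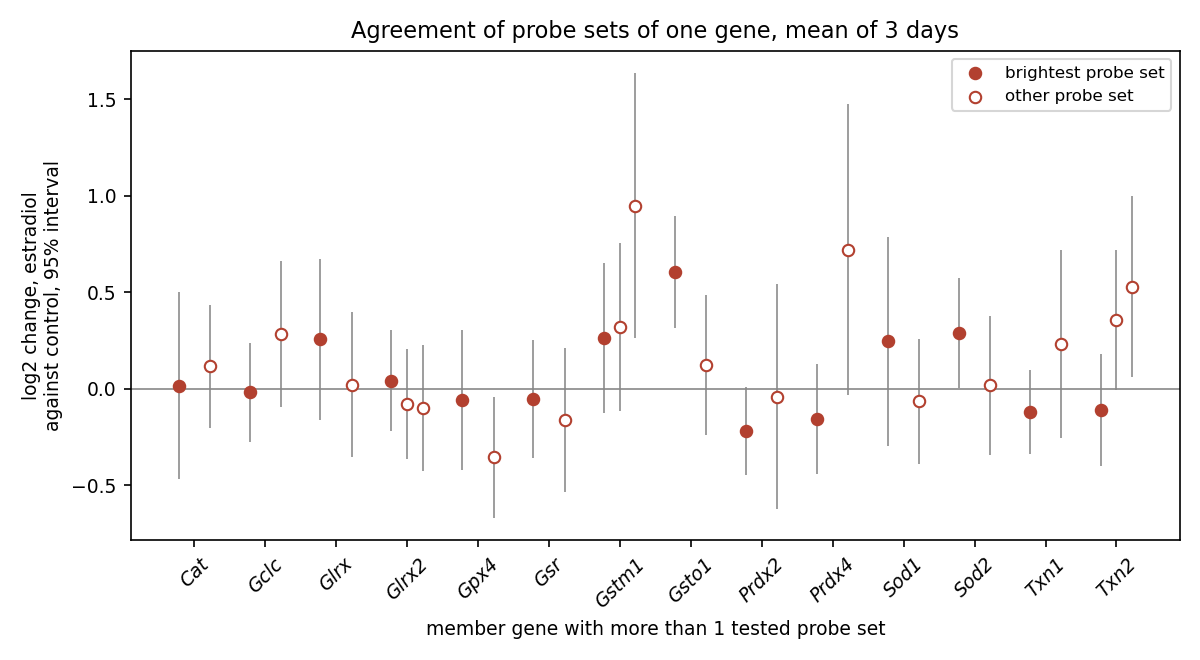
Estradiol change over the mean of days 2, 3 and 6 as a difference of log2(signal + 16), with 95% interval from limma, for each tested probe set of the 14 member genes that had more than 1; filled points are the brightest probe set of the gene. The widest gap is that of Prdx4, at -0.16 and 0.72, and 6 of the 14 genes have probe sets on both sides of 0.

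The direct comparison of estradiol with genistein, which differ in dose and route, gave 2 members higher with estradiol over the mean of the days, Cbr2 and Mt2, beside 1.41% of all probe sets called in either direction and 1.11% called higher. Cbr2 differed by 0.62 ± 0.079, 1.53-fold (limma adjusted p = 0.00177), and Mt2 by 0.60 ± 0.115, 1.51-fold (adjusted p = 0.0243). Mt2 was also the 1 member probe set in which all 6 estradiol arrays were above all 6 genistein arrays, beside 0.965% of all, and 0 members lay the other way, beside 0.413%. At day 2 Cbr2 was called, with a difference of 1.02 ± 0.138 (adjusted p = 0.0119), as 1 member beside 0.081% of all. At an unadjusted p under 0.05 in limma, 12 of the 49 member probe sets passed over the mean of the days (24.5%, against 17.1% of all). At day 2, 9 passed (18.4%, against 6.72% of all). At day 3, 0 members were called by limma (0.0147% of all), with 1 at an unadjusted p under 0.05 (6.7% of all), and at day 6, 0 were called (0.265%), with 8 at that level (13.4%). At day 6 the differences were 0.56 ± 0.138 for Cbr2 (adjusted p = 0.119), 0.62 ± 0.162 for Nqo1 (adjusted p = 0.133) and 0.63 ± 0.199 for Mt2 (adjusted p = 0.214). Mt1 differed by 0.56 ± 0.164 over the mean of the days (adjusted p = 0.103). Of the 32 genes, 24 were higher with estradiol, with a median of 0.08 against -0.01 for all genes, and 47.2% of all genes and 49.6% of all probe sets were higher with estradiol.

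The Cbr2 difference over the mean of the days was kept in every run that left out 1 array, and lost with the scale of the 3 brighter arrays as a block (0.67, limma adjusted p = 0.0534). The day 2 difference was lost without the first estradiol array of that day (limma adjusted p = 0.116) and without the second genistein array (0.0635). The Mt2 difference was lost without either estradiol array of day 3 or day 6 (0.078 to 0.085), or without the first genistein array of day 2, 3 or 6 (0.0607 to 0.0774), and stayed between 0.54 and 0.60 in these runs.

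Between days 2 and 6, the member with the smallest p was Cbr2 for genistein and Gstm3 for estradiol, and neither passed the threshold. With genistein Cbr2 read 688 and 541 at day 2 and 992 and 1133 at day 6, a difference of 0.78 ± 0.138 whose unadjusted p ranked 1 among all 13575 probe sets (limma adjusted p = 0.448). With estradiol it differed by 0.32 ± 0.138 between the same days (adjusted p = 0.495). By limma, 0 members were called between days 2 and 6 for either treatment, as were 0% of all probe sets, with 6 members at an unadjusted p under 0.05 for estradiol (9.5% of all) and 4 for genistein (6.3%). The limma F test of whether the course over the days differed between treatments called 0 members and 0% of all probe sets, with 5 members at an unadjusted p under 0.05 (4.24% of all). Gstm3, a mu-class transferase named here after its values were seen, read 201 and 221 at day 2 and 118 and 147 at day 6, a difference of -0.62 ± 0.154 (adjusted p = 0.32). This Gstm3 probe set carries the suffix that marks probes shared between related transcripts, so part of its signal may come from another gene. The other Gstm3 probe set was dim, at 1.2 to 6, and was not tested.

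Genes that work beside the members were read from lists. The calls over the mean of the days stand beside 0.682% of all genes called with estradiol and 0.0487% with genistein. Of 21 tested NRF2 pathway genes, the regulators and targets of the antioxidant response, 2 were called with estradiol over the mean of the days. Hmox1, which breaks down heme, rose by 1.16 ± 0.175 (limma adjusted p = 0.00889), and the transporter gene Abcc3 gave 1.27 ± 0.222 (adjusted p = 0.0205). Hmox1 read 45.8 and 26.0 in control, 84.5 to 129 over the estradiol arrays and 45.6 to 60.1 over the genistein arrays, so that all estradiol arrays lay above all others. Abcc3 read 26.0 and 8.0 in control and 47.3 to 79.1 over all treated arrays, with a genistein change of 1.33 ± 0.222 that was not called (adjusted p = 0.0592). The filter stood at a level of 44.5. Both control arrays of Abcc3 were below it, so that the probe set was tested only through its treated arrays and its call supports nothing on the list. Hmox1 averaged 34.9 in control, and 47.9 over the control and genistein arrays. Of 20 genes of metal handling, 1 rose with estradiol, the iron exporter gene Slc40a1, by 0.81 ± 0.138 (adjusted p = 0.0203), and the list's median was -0.02. Tfrc, the transferrin receptor, was not called at -0.50 ± 0.118 (adjusted p = 0.0724). The NRF2 list's median was 0.22 with estradiol and 0.08 with genistein, against 0.01 and 0.02 for all genes.

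Of 14 genes of peroxisomes and oxidant sources, 1 rose with estradiol, xanthine dehydrogenase Xdh, by 0.81 ± 0.162 (limma adjusted p = 0.0426). Of 11 glucocorticoid-responsive genes, all 11 were above control under both treatments, beside 51.5% of all genes with estradiol and 54.7% with genistein, in comparisons that share the control arrays. Their changes had medians of 0.35 for estradiol and 0.25 for genistein, and 1 was called in each. That gene was Tsc22d3, a known glucocorticoid target, with 1.03 ± 0.161 for estradiol (adjusted p = 0.0127) and 1.07 ± 0.161 for genistein (adjusted p = 0.0412). It read 253 and 287 in control and 377 to 779 on all 12 treated arrays. Of 9 genes of glutathione synthesis and transport, 19 thioredoxin partners and 8 microsomal and related transferases, 0 were called by limma for estradiol or genistein. At an unadjusted p under 0.05 the counts were 3, 5 and 2 for estradiol and 1, 3 and 1 for genistein, and the estradiol medians were 0.30, -0.01 and 0.15. For the NRF2, metal, peroxisome and glucocorticoid lists these counts were 8 of 21, 4 of 20, 2 of 14 and 5 of 11 for estradiol, and 5, 2, 3 and 5 for genistein. Over all genes tested, 15.3% passed that level for estradiol and 11.1% for genistein. Between estradiol and genistein, Hmox1 (0.73 ± 0.123, adjusted p = 0.0112), Slc40a1 (0.60 ± 0.098, adjusted p = 0.00894) and Xdh (0.62 ± 0.115, adjusted p = 0.0187) were called higher with estradiol. Over all genes, 1.14% were called higher in that comparison.

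Whole thymus holds many cell types, and a lower or higher signal may come from fewer or more cells of a type or from less or more RNA per cell, which cannot be told apart. Markers of developing T cells at the double-positive stage were high, summing to 11320 to 11800 in control, 10420 to 12770 with estradiol and 11260 to 13540 with genistein. All 6 estradiol arrays lay above both controls in the summed markers of adipocytes, macrophages, thymic epithelium, fibroblasts, neutrophils and B cells. Cbr2, Gpx3, Mt1 and Mt2 were also above both controls on those arrays, and Gpx3 on all genistein arrays too. With the 3 days pooled, the sums for dendritic, endothelial and red blood cell markers overlapped control. At day 6 the red blood cell sums, 137.6 to 164.6 with estradiol and 137.4 to 145.7 with genistein, were below both controls. Genistein at day 3 was also below, at 168.2 to 195.2. Dendritic sums were above both controls at estradiol days 2 (519.2 to 543.4) and 3 (518.5 to 560.6) and genistein day 6 (566 to 567.2). So were endothelial sums at estradiol day 6 (739.1 to 799.1). The 9 adipocyte markers on the array summed to 1356 to 1432 in control, to 2040 to 3425 with estradiol, to 1094 to 1531 with genistein at days 2 and 3 and to 1846 to 2029 at day 6. Of the 6 that were tested, 3 were called higher with estradiol over the mean of the days (Lpl, Cebpa and Scd1). The other tested markers, Adipoq, Fabp4 and Retn, were not called, and Pparg, Cidec and Lep were near background at mean signals of 6.15, 17.3 and 6.59. Over all genes, 0.682% were called in that comparison and 15.3% had an unadjusted p under 0.05 in limma. These are the shares to set beside the counts of markers called with estradiol against control, here and below. The 13 macrophage markers summed to 2739 to 3013 in control, 3477 to 3919 with estradiol, 2735 to 2848 with genistein at day 2 and 3203 to 3534 at days 3 and 6, with 2 of 11 called (Csf1r and Mertk) and Marco at a mean of 6.68. Adgre1, the defining macrophage marker, read 184 and 153 in control and 144 to 195 with estradiol.

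The 13 thymic epithelial markers summed to 6359 to 6951 in control, 8383 to 10050 with estradiol and 7438 to 8264 with genistein, with 4 of 13 called with estradiol. The 8 fibroblast markers summed to 1087 to 1213, 1457 to 1797 and 1058 to 1296 in the same order, with 0 of 6 called by limma with estradiol, 5 at an unadjusted p under 0.05, and Pdgfra near background at 22.5. The 7 neutrophil markers summed to 836.5 to 884.2 in control, 1302 to 1906 with estradiol and 614.5 to 1260 with genistein, with 0 of 5 called by limma with estradiol and 5 at an unadjusted p under 0.05. The 7 dendritic cell markers summed to 424.5 to 501.5, 490.6 to 591.4 and 451.9 to 567.2, the 10 endothelial markers to 670.2 to 738.0, 623.5 to 799.1 and 593.7 to 783.5, and the 5 B cell markers to 2212 to 2387, 2547 to 3403 and 2207 to 3286. Of 5 red blood cell markers 1 was bright enough to test, and they summed to 197.3 to 266.2, 137.6 to 248.8 and 137.4 to 253.1. Between estradiol and genistein over the mean of the days, limma called 4 of 6 adipocyte, 3 of 5 neutrophil and 2 of 11 macrophage markers. It also called 2 of 13 thymic epithelial, 1 of 6 fibroblast and 1 of 8 double-positive markers. For B cell, dendritic, endothelial and red blood cell markers it called 0. Over all genes, 1.4% were called in that comparison in either direction. The part of these cell types in the changes of Cbr2, Gpx3, Mt1, Mt2, Nqo1 and Gsto1 was not tested.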

How the data were processed

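RNA of whole thymus was measured on 14 Affymetrix arrays, 2 per group in 7 groups, each array a pool of 3 animals. The deposited values are array intensity, given as MAS5 signals per the submitters' processing notes (MAS5 version 5.0); the scanner files were not used here. Per the labels the pools are independent biological replicates. No step after MAS5, and no reason for the higher scale of 3 arrays, is given in the sources used here. No 2 arrays were identical.

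From these values, 64 control probe sets were removed, each array was scaled to a 2% trimmed mean of 150.04, and the 40% of probe sets with the lowest mean of log2(signal + 16) over all arrays were left out. limma 3.58.1 in R 4.3.3 fitted the 7 group means over all 14 arrays (eBayes with trend, 7 residual and 13.74 total degrees of freedom), and p-values were adjusted by the Benjamini-Hochberg method over 13575 probe sets in each of 14 comparisons and 2 F tests. The number of arrays limits the precision.

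Probe sets took their gene from the platform's annotation: 20393 had 1 symbol, 691 several and 1606 none. All 69 member probe sets matched the RefSeq gene table by Entrez gene identifier and took its symbol. Figures used Python 3.11.15 with matplotlib 3.10.9.

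Genes named in full were those with a called probe set and, per role, the member with the smallest F-test p among the rest. A set list was added: Mt1, Mt2, Gpx1, Gpx3, Gpx4, Prdx1, Prdx2, Sod1, Sod2, Cat, Gclc, Gclm, Gsr, Nqo1 and Cbr2. Prdx1, though on that list, was not among the members and has no values here. Of pathway lists, those called and up to 2 others were named. Members and lists were chosen with earlier results of these data known. Alternatives covered the pseudocount, filter, scaling, trend, a replicate block, the 3 arrays of higher scale, the Gapdh ratio, the groups fitted, and leaving out each array.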

Additional observations from a re-analysis of the deposited data

Results flagged for a closer look

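In 4 member probe sets, both arrays of a treatment lay above both controls at 1 day and below both at another, for pairs of days whose difference was not tested by itself. With estradiol, the second Glrx probe set was above control at day 3 and below it at day 6, a difference of 0.438 on the log2 scale. The second Sod2 probe set went the other way, by -0.146, and the brightest Txn2 probe set by -0.431. With genistein, the brightest Prdx4 probe set was above control at day 2 and below it at day 3, a difference of 0.371. These 4 probe sets were not called in any comparison. With 2 arrays against 2, such gaps are common. At a single day of either treatment, 14.6% to 24.9% of all probe sets lay above both controls, and 15.5% to 24.6% below both. The share of all probe sets that changed sides between days was not counted, so the 4 have no background beside them.

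Between days 2 and 6, which were compared by limma, the same was seen with estradiol in the brightest probe sets of Glrx2 and Txn2. Glrx2 was above both controls at day 2 and below both at day 6, by -0.38 (limma adjusted p = 0.459), and Txn2 was below them at day 2 and above at day 6, by 0.30 (limma adjusted p = 0.589). Neither difference was called, and for this pair of days too the share over all probe sets was not counted.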

How the results depend on the processing

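The numbers of member probe sets called below are out of 49, or fewer where the filter or arrays changed. Using the values as deposited, in which the median change of all probe sets was 0.43 for estradiol over the mean of the days and 1.01 at day 3, called 20 members for estradiol over the mean of the days. On day 2 it called 3, on day 3 it called 49 and on day 6 it called 1. It called 42 in the comparison with genistein over the mean of the days and 47 in that of day 3, with 48 in the F test of any difference and 28 in the F test of treatment by day. For estradiol over the mean of the days the count was 1, in place of 3, with no filter, quantile normalization, centring on array medians, eBayes without trend and the scale of the 3 arrays as a block, and 5 with the Gapdh ratio as a covariate. With the replicate block it was also 1; the deviations of same-numbered arrays correlated above 0.1 in 5 of 21 pairs of groups (range -0.26 to 0.35), so the numbers do not pair the arrays, and no other count of member calls moved by over 1.5 times with the block. For estradiol at day 2 the count was 0 with the 3 arrays left out or with only the groups compared fitted. At day 3 it was 0 without trend, with the scale block or with only the groups compared. At day 6 it was 1 with no filter, with the 3 arrays left out or with only the groups compared. Against genistein it was 1 over the mean of the days with the scale block, where Cbr2 was lost (adjusted p = 0.0534 by limma), and at day 2 it was 0 with the 3 arrays left out or with only the groups compared. The causes were not tested.

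Leaving out each array in turn gave 1 to 4 calls for estradiol over the mean of the days, 0 to 2 at day 2, 0 to 2 at day 3 and 0 to 4 at day 6. For genistein it gave 0 to 2 over the mean of the days, 0 to 1 at days 2 and 3, and 0 to 2 at day 6, with 0 in 13 of 14 runs each. Against genistein it gave 1 to 3 over the mean of the days, 0 to 1 at day 2 and 0 to 0 at days 3 and 6. It gave 0 to 0 between days 2 and 6 and for treatment by day, and 1 to 2 for any difference. In a run that leaves 1 array in a group, that array is assumed to vary like the other groups.

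Of the 10 called changes, all kept their sign under all alternatives. Cbr2 over the mean of the days was called under all 28 against control and under 27 of 28 against genistein, Gpx3 against control under 14 and Mt2 under 9 of 28, Mt2 against genistein under 21 and Nqo1 at day 6 under 21. With 2 arrays a group and a single control time, small changes of dim members could not be resolved.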
